A study of Arabidopsis thaliana with 6 samples.

Results

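The lipid transfer protein family around AT5G38195 comprises 9 Arabidopsis thaliana loci, AT5G38195, AT5G38160, AT5G38170, AT5G38180, AT3G07450, AT5G52160, AT5G62080, AT1G66850 and AT1G73550. Members were found by matching these loci to probe sets whose annotation names exactly 1 gene, with the brightest probe set standing for a gene. Of the 9 loci, 8 had a probe set, 1 each, so brightness decided nothing. They stand among 13333 genes with a probe set of their own on the Affymetrix ATH1 array. AT1G73550 had no such probe set and is unmeasured here. The family was chosen by the measured decrease of AT5G38195, among the most decreased transcripts of the mutant, so the decrease of that gene is given as a description, with no p.

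The mutant seeds came from hda9-1, the SALK_001723 line with an insertion in HISTONE DEACETYLASE 9 (HDA9), whose product takes acetyl groups off histones. They were set against seeds of the wild type Col. Each genotype had 3 biological replicates pooled from siliques of several plants and hybridised to 1 array each, and the mutant was represented by 1 allele. Dry seeds were taken from siliques 18 to 19 days after pollination, on plants given days of 16 h at 22 °C and nights of 8 h at 16 °C. The series text names dry siliques and the sample labels dry seeds as the material. No probe set was paired with HDA9 (0 of its own), so the genotype labels were not checked against its transcript.

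Lipid transfer proteins are small secreted proteins of plants. Their chain carries a conserved pattern of cysteines whose disulphide bridges hold helices around a cavity that takes up fatty acids and other lipids. They share this fold with seed storage 2S albumins and with inhibitors of amylases and proteases, and are known for roles in cuticle and pollen wall formation, in defence and in seeds. Within this superfamily AT5G52160 and AT5G62080 are known as genes of the tapetum, the anther tissue that feeds pollen and supplies its wall. Particular functions of the other 7 loci are not described here.

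Values are log2 expression values per probe set, in which 1 unit is a doubling. They ranged from 2.58 to 14.94, with a median of 5.41 to 5.46 on each array. Col replicate 3 stood apart in the control for RNA integrity, the excess of the 3′ over the 5′ probe set of actin. This was 1.17 to 1.28 log2 units in the hda9-1 arrays, against 1.58 in Col replicate 3 and 0.96 and 1.03 in Col replicates 1 and 2. Values without that array are given beside the members that read high, OLEO3 and the markers that passed. None of the 11 listed embryo and dry seed markers had a probe set of its own. Added to the check after the data were seen were 3 seed storage protein-like genes. The vicilin-like gene PAP85 read 14.24 ± 0.03 in hda9-1 and 14.21 ± 0.06 in Col, and AT2G28490 read 13.78 ± 0.11 in hda9-1 and 13.71 ± 0.03 in Col (SD, n = 3 each). The third, AT4G36700, fell. It read 9.76 ± 0.24 in hda9-1 and 10.56 ± 0.14 in Col (SD, n = 3 each), without overlap, a change of −0.80 (SE 0.14, adjusted p = 0.0297 in limma).

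The measured members fell into 3 genes with values in the upper part of the array's range and 5 near its lower end. Mean values of AT5G38195, AT5G38160 and AT5G38170 exceeded those of 94.1%, 85.8% and 80.3% of the 22746 probe sets tested, and each of the 3 was lower on average in hda9-1. The other 5 members had mean values of 3.44 to 4.05, below the median of all probe sets, and their changes lay between −0.07 and 0.10. The 3 genes in the upper part are neighbours of one chromosome, together with the low-reading AT5G38180.

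**Figure D1:**
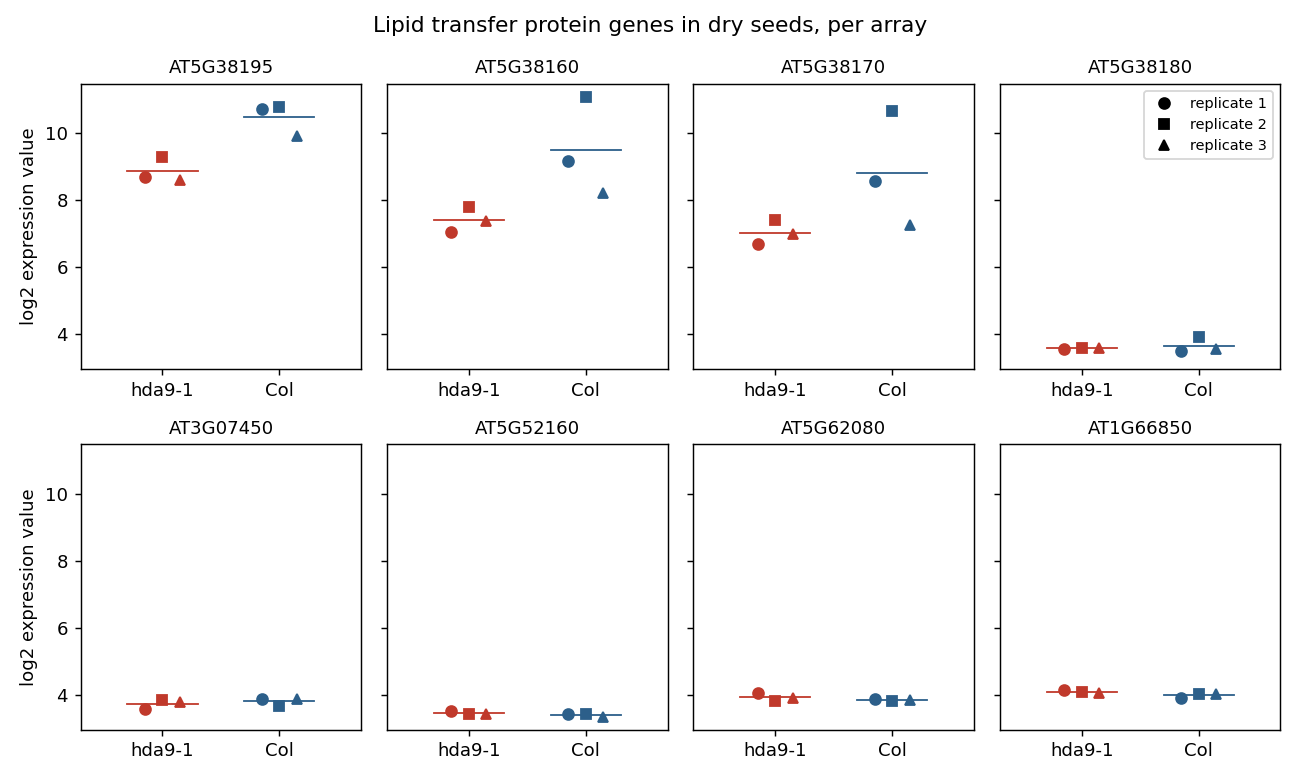
Log2 expression values (vertical axis, the same in every panel) of the 8 measured genes in hda9-1 (left, red) and Col (right, blue), with 1 point per array and a line at the mean of 3 arrays. AT5G38195 and AT5G38160 are lower in every hda9-1 array than in any Col array, AT5G38170 overlaps between genotypes, and the other 5 genes stay between 3.36 and 4.14.

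AT5G38195, the gene the family is named for here, read 8.70, 9.31 and 8.61 in hda9-1 replicates 1, 2 and 3, against 10.73, 10.79 and 9.93 in Col replicates 1, 2 and 3. Every hda9-1 array was below every Col array, with a gap of 0.62 between the highest hda9-1 and the lowest Col value. The means were 8.87 ± 0.38 in hda9-1 and 10.48 ± 0.48 in Col (SD, n = 3 each). On the log2 scale hda9-1 thus differed by −1.61 (SE 0.27), or 3.06-fold lower. Without Col replicate 3 the change was −1.89. In whole seeds, fewer cells of a type and less RNA per cell cannot be told apart.

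AT5G38160 read 7.04, 7.80 and 7.39 in hda9-1 replicates 1, 2 and 3, against 9.19, 11.10 and 8.21 in Col replicates 1, 2 and 3. The genotypes did not overlap, with 0.41 between the highest hda9-1 and the lowest Col value, and the Col arrays were widely spread. The means were 7.41 ± 0.38 in hda9-1 and 9.50 ± 1.47 in Col (SD, n = 3 each). The log2 change was −2.09 (SE 0.64), or 4.25-fold lower with a 95% interval of 1.52-fold to 11.9-fold. This was the largest average decrease of the 13333 genes with a probe set of their own, and rank 4 among all probe sets. It did not pass at an adjusted p under 0.05 in limma, a linear model fitted to every probe set with adjustment over all of them (adjusted p = 0.125). With the replicate number as a block, a pairing that rests on these data alone, it passed in limma (adjusted p = 0.0441). That fit called 1453 of all probe sets, against 870 without the block.

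AT5G38170, the next gene along the chromosome, read 6.70, 7.43 and 6.99 in hda9-1 replicates 1, 2 and 3, against 8.57, 10.67 and 7.25 in Col replicates 1, 2 and 3. Here the genotypes overlapped, because Col replicate 3 was below hda9-1 replicate 2. The means were 7.04 ± 0.37 in hda9-1 and 8.83 ± 1.72 in Col (SD, n = 3 each). The log2 change of −1.80 (SE 0.74) was 3.47-fold in size with a 95% interval of 1.05-fold to 11.5-fold, and ranked 4 among the decreases of the 13333 genes. It did not pass in limma (adjusted p = 0.240, or 0.0964 with the replicate block).

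The wide spread of AT5G38160 and AT5G38170 lay in the Col seeds and followed the same arrays. The SD over Col arrays was 3.87 times that over hda9-1 arrays for AT5G38160 and 4.68 times for AT5G38170, against 1.27 times for AT5G38195. These ratios rest on 3 arrays per genotype and were not tested. In hda9-1 seeds all 3 genes were highest in replicate 2, where AT5G38160 and AT5G38170 each stood 0.39 and AT5G38195 0.44 above its hda9-1 mean. In Col seeds replicate 2 was highest as well, with AT5G38160 1.60, AT5G38170 1.84 and AT5G38195 0.31 above its Col mean. Col replicate 3, the array with the steepest actin signal, was lowest, with AT5G38160 at −1.29, AT5G38170 at −1.58 and AT5G38195 at −0.56 from its Col mean. The pooled SD within genotypes was 1.07 for AT5G38160 and 1.25 for AT5G38170, larger than that of 99.9% and 99.95% of probe sets, whose median was 0.14. The part of RNA integrity in this spread was not tested. Probe sequences were not used here, so binding of one gene's transcript to the other's probes was not tested either.

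Taken by replicate number, a pairing that rests on these data alone, each of the 3 genes was lower in hda9-1 in every pair. The genotypes did not overlap for AT5G38195 and AT5G38160, so any pairing would give this, and nothing is read from it. For AT5G38195 the differences were −2.03, −1.48 and −1.31 in replicates 1, 2 and 3. AT5G38160 differed by −2.14, −3.30 and −0.83. AT5G38170 differed by −1.88, −3.24 and −0.27, so its smallest difference, in replicate 3, was the one near 0.

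The size of the change depended on single Col arrays for AT5G38160 and AT5G38170. Without Col replicate 2, the array with the highest values, the change was −1.29 for AT5G38160 and −0.88 for AT5G38170, and −1.46 for AT5G38195. Without Col replicate 3 it was −2.73, −2.58 and −1.89 in the same order of genes. All 3 stayed negative whichever array was left out. This was fixed for AT5G38195 and AT5G38160, whose genotypes did not overlap. Neither AT5G38160 (adjusted p from 0.0513 to 0.273) nor AT5G38170 (0.0694 to 0.435) passed in any of these 6 limma fits.

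**Figure D2:**
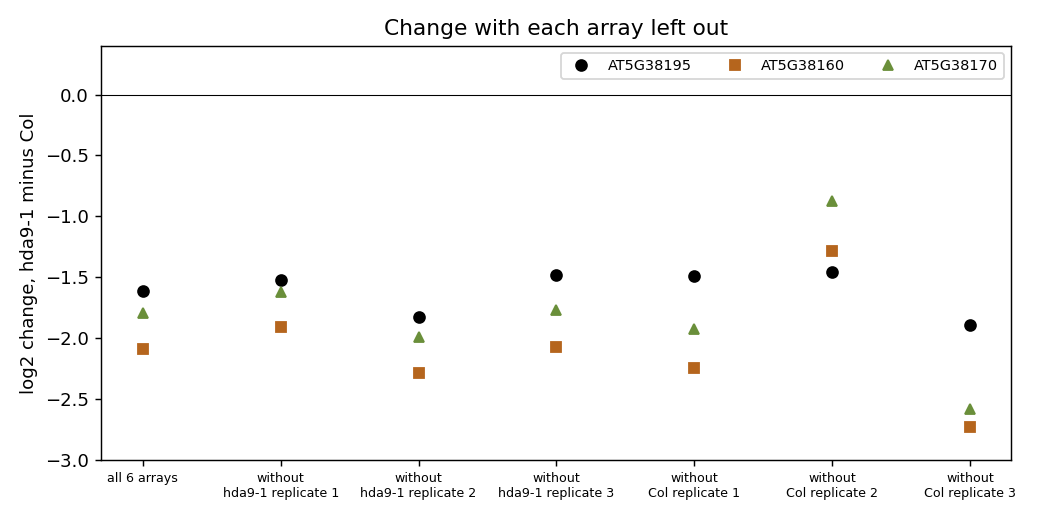
Log2 change, hda9-1 minus Col (vertical axis), of 3 genes with all 6 arrays and with each array left out in turn (horizontal axis). AT5G38195 stays between −1.89 and −1.46, whereas AT5G38160 spans −2.73 to −1.29 and AT5G38170 −2.58 to −0.88.

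AT5G38180, which directly follows AT5G38170 on the chromosome, read 3.58, 3.61 and 3.59 in hda9-1 replicates 1, 2 and 3, against 3.51, 3.93 and 3.56 in Col replicates 1, 2 and 3. The genotypes overlapped, and the highest value was again that of Col replicate 2. Its log2 change was −0.07 (95% interval −0.36 to 0.22, adjusted p = 0.839 in limma). The mean level exceeded that of 15.5% of probe sets, and no detection calls were among the values used, so presence of the transcript was not judged.

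Both tapetum genes of the family read low in these seeds. AT5G52160 read 3.52, 3.44 and 3.44 in hda9-1 and 3.44, 3.42 and 3.36 in Col in replicates 1, 2 and 3, a change of 0.06 (95% interval −0.13 to 0.25). AT5G62080 read 4.06, 3.82 and 3.93 in hda9-1 and 3.89, 3.82 and 3.84 in Col, a change of 0.08 (95% interval −0.13 to 0.30). Neither passed in limma (adjusted p = 0.794 and 0.720). Tapetum and anther wall markers read low as well. Of 17 listed, 4 were measured, with list means of 3.58 to 3.70 in hda9-1 arrays and 3.69 to 3.77 in Col arrays, and none passed in limma or at an unadjusted p under 0.05. One of these 4, AT5G07230, is a lipid transfer protein gene of the tapetum like the 2 members, and read 3.53 ± 0.14 in hda9-1 and 3.65 ± 0.12 in Col (SD, n = 3 each). AT5G07230 and another of the 4, AT3G52130, also belong to the wider list below.

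The remaining members also lay near the lower end. AT3G07450 read 3.58 to 3.85 in hda9-1 and 3.67 to 3.89 in Col, a change of −0.07 (95% interval −0.33 to 0.18). AT1G66850 read 4.07 to 4.14 in hda9-1 and 3.91 to 4.05 in Col, a change of 0.10 (95% interval −0.10 to 0.30). Neither passed in limma (adjusted p = 0.806 and 0.623). For AT1G66850, as for AT5G52160, all hda9-1 values exceeded all Col values, by small amounts. Differences of low-reading probe sets are compressed on this scale, so the intervals bound the measured log2 values and not the transcripts.

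Counts of calls leave out AT5G38195, which was chosen for its decrease. Of the other 7 measured members, 0 were called lower and 0 higher at an adjusted p under 0.05 in limma. Over all probe sets 2.45% were called lower and 1.37% higher. With the replicate block 1 of the 7 was called lower, AT5G38160, against 3.64% of all probe sets, and 0 were called higher, against 2.75%. All hda9-1 arrays lay below all Col arrays for 1 of the 7, against 12.1% of probe sets, and above for 2, against 11.6%. At an unadjusted p under 0.05 there were 2 of the 7, AT5G38160 and AT5G38170, against 19.2% of probe sets. The median change of these 7 was −0.07, and that of all probe sets was −0.0048. The median of the 7 is the change of AT5G38180, one of the low-reading members.

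The genes around AT5G38195 were examined in the order of assembly TAIR10.1, used only for gene order. AT5G38160, AT5G38170 and AT5G38180 follow each other directly on chromosome 5, and 2 genes, of which 1 is a pseudogene, lie between AT5G38180 and AT5G38195. Of the 5 nearest measured genes on either side of AT5G38195, 3 are members and 7 are not. Changes of those 7 lay between −0.12 and 0.25. None of the 7 passed in limma, where 2.45% of all probe sets were called lower and 1.37% higher. None passed with the replicate block either, against 3.64% lower and 2.75% higher. At an unadjusted p under 0.05 there was 1 of the 7, against 19.2% of probe sets. That gene was AT5G38130, an acyltransferase family gene, which read 3.58 ± 0.14 in hda9-1 and 3.32 ± 0.09 in Col (SD, n = 3 each), a change of 0.25 (95% interval 0.01 to 0.50, adjusted p = 0.242). It read low, with a mean level above that of 9.6% of probe sets.

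The nearest measured genes of other families enclosed the members on chromosome 5 without a call. No gene between AT5G38130 and AT5G38160, between AT5G38180 and AT5G38195, or between AT5G38195 and AT5G38210 was measured. The immediate flanks are therefore not covered. 4CL8, a gene of the 4-coumarate:CoA ligase family, read 4.83 ± 0.13 in hda9-1 and 4.82 ± 0.09 in Col (SD, n = 3 each), a change of 0.01 (SE 0.10). On the other side, the kinase family gene AT5G38210 was at 0.20 (95% interval −0.17 to 0.58) and AT5G38220 at −0.04 (95% interval −0.42 to 0.35). AT5G38260 was at −0.09, AT5G38290 at −0.07 and AT5G38300 at −0.12. Whether the members' changes differ from those of their neighbours was not tested.

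**Figure D3:**
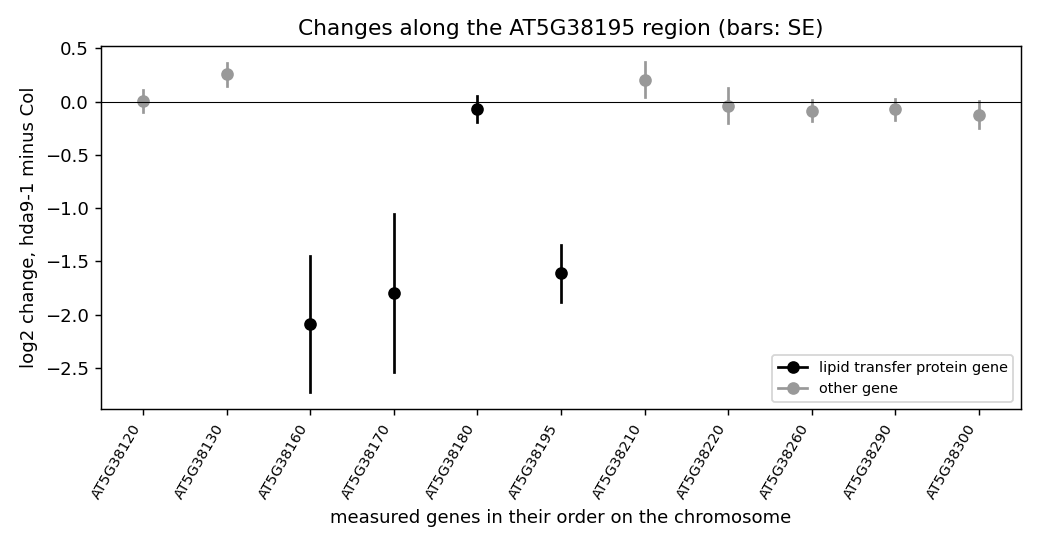
Log2 change, hda9-1 minus Col (vertical axis), of AT5G38195 and the 5 nearest measured genes on either side, in their order on the chromosome (horizontal axis, not to scale). Points are changes over 3 arrays per genotype and bars are 1 SE; AT5G38160, AT5G38170 and AT5G38195 lie between −2.09 and −1.61, and the other 8 genes between −0.12 and 0.25.

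A wider list of 105 other genes of the lipid transfer protein and 2S albumin superfamily had 44 measured genes. Of these, 1 was called lower in limma, against 2.45% of all probe sets, and 0 higher, against 1.37%. At an unadjusted p under 0.05 there were 7 of the 44, against 19.2% of probe sets. The median change was −0.02, with 27 genes negative and 17 positive, against 7016 negative and 6317 positive among the 13333 genes. Most of the list read low, with 36 of 44 genes below the median level of all probe sets. The replicate block called 1 lower, against 3.64% of all probe sets, and 1 higher, against 2.75%.

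The gene called lower was AT1G62790. It read 8.46, 8.63 and 8.47 in hda9-1 replicates 1, 2 and 3, against 9.27, 9.53 and 9.11 in Col replicates 1, 2 and 3, without overlap. Its log2 change was −0.78 (SE 0.13, adjusted p = 0.0221 in limma). The call was lost without hda9-1 replicate 1, 2 or 3 (adjusted p from 0.0673 to 0.0786) and without Col replicate 1 (adjusted p = 0.0835).

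The largest positive changes of the list belonged to AT2G18370 and AT3G58550. AT2G18370 read 7.81, 8.91 and 8.37 in hda9-1 replicates 1, 2 and 3, against 7.49, 7.69 and 6.68 in Col, without overlap, a change of 1.08 (SE 0.33) that did not pass in limma (adjusted p = 0.126) or in the blocked fit (adjusted p = 0.0601). AT3G58550 read 8.60, 9.83 and 9.13 in hda9-1, against 8.10, 8.71 and 7.56 in Col, where hda9-1 replicate 1 was below Col replicate 2. Its change was 1.07 (SE 0.36, adjusted p = 0.158), and it passed with the replicate block (adjusted p = 0.0373). In both genes hda9-1 replicate 2 had the highest and Col replicate 3 the lowest value. The changes were 0.80 and 0.74 for AT2G18370 and AT3G58550 without hda9-1 replicate 2, and 0.77 and 0.79 without Col replicate 3.

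**Figure D4:**
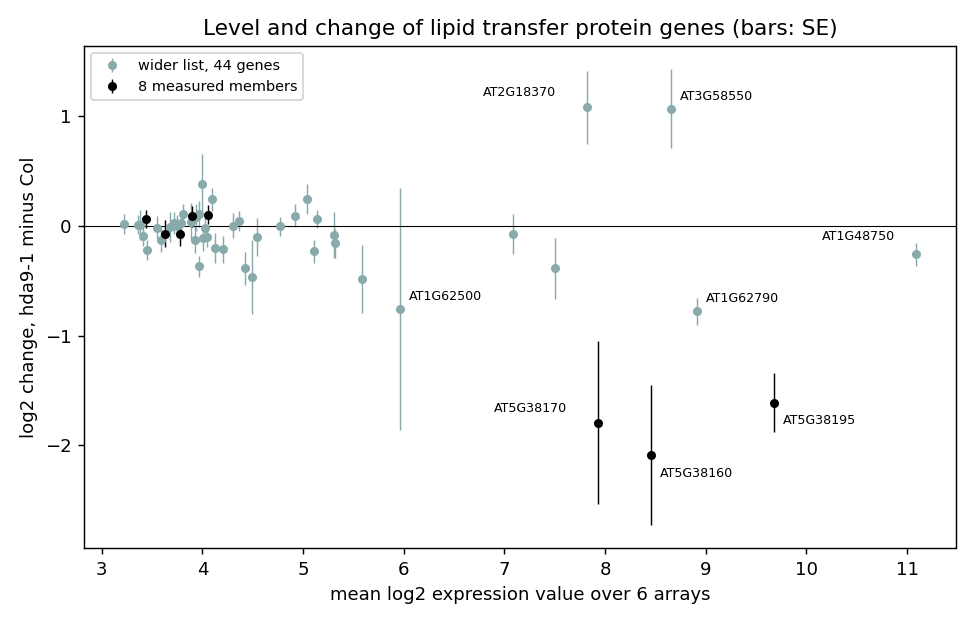
Log2 change, hda9-1 minus Col (vertical axis, bars 1 SE), against the mean log2 expression value over 6 arrays (horizontal axis) for the 8 measured members (black) and the 44 measured genes of the wider list (grey-green). Of the members, 3 lie at changes of −2.09 to −1.61, and the wider list spans −0.78 to 1.08.

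The genes whose values over the 6 arrays most resembled those of AT5G38195 were ranked by Pearson's r. The 5 highest were AT2G37980 (r = 0.991), AT3G15630 (0.989), OLEO3 (0.989), AT5G24316 (0.986) and AT2G37750 (0.985). These values describe 6 arrays of 2 genotypes, so the genotype difference enters each r, and no p is given. All 5 were lower in every hda9-1 array than in any Col array, against 12.1% of all probe sets. Likeness to AT5G38195, whose genotypes are apart, favours this, so nothing is read from the count. None of the 5 is a lipid transfer protein gene of the lists.

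OLEO3 encodes an oleosin, a protein that coats the oil bodies of seeds. It read 9.38, 9.63 and 9.28 in hda9-1 replicates 1, 2 and 3, against 10.15, 10.22 and 9.73 in Col. As with AT5G38195, replicate 2 was highest in both genotypes and replicate 3 lowest. Its change was −0.61 (SE 0.16), and −0.76 without Col replicate 3. AT5G24316 read 6.58, 6.99 and 6.07 in hda9-1 replicates 1, 2 and 3, against 8.36, 8.53 and 7.83 in Col, a change of −1.70 (SE 0.26). The other 3 changed by −0.55 (AT2G37980), −1.32 (AT3G15630) and −0.56 (AT2G37750). Since these genes were picked for their likeness to a gene chosen for its decrease, their changes are a description.

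Markers of other tissues that moved with genotype are given beside the members. Over all probe sets, limma called 2.45% lower and 1.37% higher, and 3.64% and 2.75% with the replicate block. All hda9-1 arrays lay below all Col arrays for 12.1% of probe sets and above for 11.6%. Of 9 genes listed as mature pollen markers 4 were measured, with list means of 8.49 to 8.87 in hda9-1 arrays and 9.20 to 9.25 in Col arrays. Mean levels exceeded those of 99.8% (PDF2.1), 91.2% (AT5G45880), 87.1% (AT3G01240) and 40.8% (AT1G26320) of probe sets. Whether these 4 genes mark pollen in such seeds was not tested. One of them fell, AT5G45880 (change −1.06, SE 0.19, adjusted p = 0.0301 in limma), and without Col replicate 3 its change was −0.99 (adjusted p = 0.0691). AT3G01240 of the same list read 8.18 ± 0.51 in hda9-1 and 9.04 ± 0.07 in Col (SD, n = 3 each), lower in every hda9-1 array than in any Col array. Its change was −0.86 (SE 0.23, adjusted p = 0.0890 in limma, and 0.0434 with the replicate block). AT1G26320 differed by −0.15 (adjusted p = 0.476). PDF2.1 read 13.54 ± 0.04 in hda9-1 and 13.39 ± 0.10 in Col (SD, n = 3 each). It was higher in every hda9-1 array than in any Col array, a change of 0.14 (adjusted p = 0.470 in limma). The pollen list means thus blend genes of unlike level and direction. The 4 seed coat genes had list means of 7.17 to 7.95 in hda9-1 and 6.41 to 7.27 in Col, and 1 of them rose, DELTA-VPE (change 1.45, SE 0.31, adjusted p = 0.0496). Without Col replicate 3 its change was 1.09 (adjusted p = 0.0453). The other seed coat genes did not pass. ARA12 read higher in every hda9-1 array than in any Col array, a change of 0.31 (SE 0.10, adjusted p = 0.157 in limma). BAN changed by 0.10. DFR changed by 0.41 (SE 0.67), and its 10.08 in hda9-1 replicate 1 and 7.16 in Col replicate 3 enter the list means. Of 2 measured silique wall genes ADPG1 fell (change −0.51, SE 0.10, adjusted p = 0.0399), with list means of 9.34 to 9.57 in hda9-1 and 9.37 to 9.65 in Col. Without Col replicate 3 the change of ADPG1 was −0.51 (adjusted p = 0.0791). ALC, the other one, read higher in every hda9-1 array than in any Col array, 6.64 ± 0.23 in hda9-1 and 6.24 ± 0.30 in Col (SD, n = 3 each), a change of 0.39 (SE 0.18, adjusted p = 0.285). The 2 measured endosperm genes had list means of 3.51 to 3.56 in hda9-1 and 3.43 to 3.87 in Col, and neither passed. With each of the 6 arrays left out in turn, AT5G45880 passed in 2 fits and DELTA-VPE and ADPG1 in 1 each. Those fits called 92 to 834 of all probe sets, against 870 with all arrays. The part of these tissues in the members' values was not tested.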

How the data were processed

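Per the labels, biotin-labelled RNA was hybridised to ATH1 arrays. The authors deposited 1 table of log2 values, made with RMA, affy and limma per the submitters' processing notes, which give no versions. RMA sets all arrays to 1 distribution and compresses differences of dim probe sets. Arrays hold no read depth, so precision rests on 3 arrays per genotype. Of 22810 probe sets, 64 controls were left out and 22746 tested. Names came from the platform annotation through Entrez identifiers (13484 probe sets, 13333 genes).

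All 6 arrays entered limma 3.58.1 (R 4.3.3) with genotype as the term, tested on simulated data, with Benjamini-Hochberg adjustment and calls under 0.05. Arrays of one replicate number deviated together from the means of their genotypes (r = 0.34, 0.21 and 0.21 for replicates 1, 2 and 3), each over 0.1, so a replicate block was also fitted. This pairing rests on the data alone.

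Members and lists were chosen with earlier results of these data known. Named genes were the members, called or most changed genes of the wider list, 5 genes most like AT5G38195, 5 neighbours on either side, and markers. The gene table has no descriptions, so no broader list was made. Alternatives were cyclic loess, median centring, a dim filter (mean at or above the median), trend with robust eBayes, array weights, averaged probe sets, the block and each array left out.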

Additional observations from a re-analysis of the deposited data

How the results depend on the processing

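Of the settings run, none changed the sign of AT5G38195, AT5G38160 or AT5G38170. The replicate block, the dim filter, trend with robust eBayes and averaged probe sets leave the change of these genes unaltered by design. With the genotypes apart, leaving out 1 array cannot turn the sign of AT5G38195 or AT5G38160 either. Nothing is therefore read from these signs. Calls over all probe sets numbered 1496 with array weights and 1453 with the replicate block, against 870, and 92 to 834 with 1 array left out (314, 92 and 296 without hda9-1 replicates 1, 2 and 3, and 97 and 572 without Col replicates 1 and 3). Calls among all 8 members were 2 with the replicate block, against 1, and 0 to 1 with 1 array left out. These counts include AT5G38195, chosen for its decrease, and nothing is read from them. Calls in the wider list were 2 with array weights or the replicate block, against 1, and 0 to 1 with 1 array left out. The wider list's median change was −0.33 with the dim filter, which leaves 8 genes, against −0.02, and −0.067 to −0.012 with 1 array left out. The block changed the calls of AT5G38160, AT3G58550, OLEO3 and AT3G01240 among the named genes and no other named call. Cyclic loess lost the calls of DELTA-VPE (adjusted p = 0.0524 in limma) and AT2G37980 (adjusted p = 0.0517). Array weights gave OLEO3 a call (adjusted p = 0.0327).

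Uncalled small changes that turned sign with 1 array left out spanned −0.14 to 0.0057 for AT3G07450, −0.15 to 0.061 for AT5G38180, −0.042 to 0.083 for 4CL8 (AT5G38120), −0.20 to 0.11 for AT5G38220, −0.22 to 0.00097 for AT5G38300, −0.30 to 0.86 for DFR (AT5G42800) and −0.099 to 0.21 for AGL62 (AT5G60440). The cause was not tested. Members below the median level drop out under the dim filter and have no value there.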

Other observations

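AT1G62500, a gene of the wider list singled out after its values were seen, had the second-largest pooled SD within genotypes of all 22746 probe sets (1.85). It read 4.38, 7.80 and 4.56 in hda9-1 replicates 1, 2 and 3, against 4.33, 7.72 and 6.96 in Col replicates 1, 2 and 3. Its values were high in replicate 2 of both genotypes, the same number in which AT5G38160 and AT5G38170 had their highest values, and low in replicate 1 of both. Its change was −0.76 (95% interval −3.31 to 1.79, adjusted p = 0.799 in limma). AT1G48750 of the same list, also singled out afterwards, had a mean above that of 98.3% of probe sets and read 10.96 ± 0.09 in hda9-1 and 11.22 ± 0.12 in Col (SD, n = 3 each), without overlap, a change of −0.26 (95% interval −0.50 to −0.03, adjusted p = 0.210).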
